A study of Mus musculus with 8 samples.

Results

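Cxcl12, Ccl19, Ccl21a, Pdgfra, Pdgfrb, Dcn, Lum, Sparc, Acta2 and Tagln are genes of the reticular fibroblasts and mural cells that build the framework of the spleen. They were chosen by name, and these 10 of the 24171 genes on the array were measured by 19 of its 44170 features. RNA labelled spleen of 4 miR-155 knockout mice was compared with that of 4 wild-type mice on 1-colour NimbleGen arrays, one array per animal. The knockout animals Mim1-5 and Mim1-6 were labelled female and Mim2-2 and Mim2-3 male, so that sex and name prefix cannot be told apart among them. Wild-type animals 1 and 3 were labelled female and 2 and 4 male. No treatment is given in the labels, and the strain, the age, the deleted stretch and the cells in which the deletion acts are not given in the sources used here. In whole spleen, fewer cells of a type and less RNA per cell cannot be told apart.

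Fibroblastic reticular cells wrap the collagen fibres of the white pulp and secrete chemokines that place lymphocytes in their zones. CCL19 and CCL21 draw T cells and dendritic cells through the receptor CCR7, and CXCL12 acts through CXCR4 and is scavenged by ACKR3. The PDGF receptors mark fibroblasts and mural cells, decorin, lumican and SPARC belong to the extracellular matrix, and smooth muscle actin and transgelin form part of the contractile apparatus of smooth muscle cells, pericytes and some reticular cells.

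The missing microRNA is shown because it defines the knockout. Its mature form in RefSeq (GRCm38.p6, chr16:84714143-84714165, plus strand) has 23 bases, and the capitals mark the seed, bases 2 to 8, with which a microRNA pairs to its targets.
mmu-miR-155-5p: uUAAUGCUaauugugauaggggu
No target site was searched for, since no transcript ends were used here.

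The promoters of the 3 chemokine genes and of Acta2 are shown because the chemokines were higher on all knockout arrays and Acta2 is the main contractile gene of the set. RefSeq (GRCm38.p6) held a promoter for 6 of the 10 genes, taken from 250 bases before to 50 bases after the annotated start, and none was given for Pdgfrb, Dcn, Lum and Tagln. Both strands were searched for the kB motif, to which NF-kB binds, the CArG box, to which serum response factor binds, a CArG box with 1 other base inside, and the letters TATAAA and TATATA. Capitals mark a match.
Cxcl12 (chr6:117168285-117168584, plus strand): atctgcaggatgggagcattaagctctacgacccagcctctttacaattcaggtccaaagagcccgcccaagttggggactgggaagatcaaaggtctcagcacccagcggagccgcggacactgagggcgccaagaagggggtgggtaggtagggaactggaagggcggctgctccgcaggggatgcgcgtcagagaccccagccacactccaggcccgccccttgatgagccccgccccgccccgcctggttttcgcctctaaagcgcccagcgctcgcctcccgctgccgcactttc
Ccl19 (chr4:42756316-42756615, minus strand): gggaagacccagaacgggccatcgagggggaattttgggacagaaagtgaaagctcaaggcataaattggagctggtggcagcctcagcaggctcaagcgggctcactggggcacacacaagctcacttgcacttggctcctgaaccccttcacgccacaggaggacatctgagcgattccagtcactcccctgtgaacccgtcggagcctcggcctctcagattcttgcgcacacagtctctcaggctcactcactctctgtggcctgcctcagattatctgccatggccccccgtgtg
Ccl21a (chr4:42773942-42774241, minus strand): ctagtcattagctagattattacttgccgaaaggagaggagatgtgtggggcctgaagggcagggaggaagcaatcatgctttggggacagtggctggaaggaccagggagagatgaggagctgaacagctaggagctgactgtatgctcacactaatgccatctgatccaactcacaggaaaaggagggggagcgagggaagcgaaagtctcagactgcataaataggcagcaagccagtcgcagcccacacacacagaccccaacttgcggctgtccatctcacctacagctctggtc
Acta2 (chr19:34255324-34255623, minus strand): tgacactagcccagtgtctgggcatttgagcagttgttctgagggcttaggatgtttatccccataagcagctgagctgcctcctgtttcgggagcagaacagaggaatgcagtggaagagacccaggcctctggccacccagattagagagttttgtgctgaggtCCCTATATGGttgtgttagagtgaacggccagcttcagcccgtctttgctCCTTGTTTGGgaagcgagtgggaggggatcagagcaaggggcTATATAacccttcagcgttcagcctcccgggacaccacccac
The Acta2 window held 2 CArG boxes with 1 other base inside, CCCTATATGG from base 167 and CCTTGTTTGG from base 217 of the window, and TATATA from base 259. Such altered CArG boxes occurred in 8.49% and TATATA in 5.67% of 32841 promoters of the same length. None of the chemokine windows held any of the 5 patterns, of which the kB motif occurred in 8.46%, TATAAA in 13.6% and the unaltered CArG box in 1.63% of all promoters. The Cxcl12 window had 64.7% G and C bases with 20 CG pairs, the Ccl19 window 58.7% with 10 and the Ccl21a window 53.7% with 5, beside a median of 52.7% G and C over all promoters.

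The feature of BIC, the transcript that carries miR-155, read log2 5.28 to 7.51 on knockout and 4.84 to 5.63 on wild-type arrays, near the random probes on all but 1, and where its probes lie relative to the deletion is not known, so it does not check the genotype. The sex labels were not borne out by sex-linked genes: Xist, which silences an X chromosome in females, read 8.35 to 11.10 in labelled males and 9.52 to 10.91 in labelled females, and the Y-linked gene Ddx3y averaged 7.76 and 7.82. By genotype, Ddx3y read 8.39 to 8.83 on knockout and 6.26 to 7.33 on wild-type arrays, without overlap. Xist read 8.35 to 10.24 and 9.52 to 11.10, with overlap. Whether actual sex differs between the genotypes was not tested, and fitting the labelled sex would not remove such a difference. Male and female below mean arrays so labelled. The arrays of Mim2-2 and Mim2-3 correlated with the other 6 at r = 0.811 to 0.877 over all features, whereas the other 6 correlated among themselves at 0.911 to 0.943. Milk protein genes, bright on all arrays but Mim2-2, go against RNA of spleen alone. Their mean was log2 7.48 in Mim2-2, against 10.41 to 11.00 on wild-type arrays. The values below are therefore of RNA labelled spleen and cannot be assigned to splenic stroma. The summed intensity of 8 milk protein genes was 4610 to 46382 on knockout and 75102 to 77624 on wild-type arrays. It was lowest in Mim2-2, and Mim1-6 (27710) was below Mim2-3 (32656). The sum of 14 genes of luminal epithelium was 4731 to 52910 on knockout and 44537 to 61803 on wild-type arrays, with Mim2-2 and Mim2-3 lowest. For 12 adipocyte genes the sum was 47954 in Mim2-2 and 27820 in Mim2-3, against 9024 and 6574 in Mim1-5 and Mim1-6 and 6890 to 12613 on wild-type arrays. B cell genes, which are not limited to spleen, summed to 13324 to 23102 on knockout and 4809 to 7711 on wild-type arrays. Random probes, taken as the background level, read log2 4.94 to 5.24. Of the members, Cxcl12, Ccl19, Ccl21a, Sparc, Acta2, Tagln, Dcn, Pdgfra and Pdgfrb lay above that level on all 8 arrays, and Lum on 3 of 4 knockout and 2 of 4 wild-type arrays. Pdpn, a defining gene of reticular cells outside the set, was close to background, with log2 intensities of 5.25 to 6.29 on knockout and 4.65 to 5.87 on wild-type arrays.

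No feature passed between the genotypes when p was adjusted over all features (limma, 0 of 44170, 0%). At an unadjusted p under 0.05, 6122 features differed, 3085 higher and 3037 lower in the knockout. Over the 24171 genes, each by its brightest feature, 7.70% were higher and 6.62% lower at that p. Of the 10 stromal genes 4 were higher (Cxcl12, Ccl19, Ccl21a and Tagln) and 0 lower. On 3 genes, the chemokines, every knockout array lay above every wild-type array, which held for 5.27% of all genes. The opposite order, every knockout array below, held for 2.56% of all genes and 0 of the 10. The difference was positive in 9 of the 10, Pdgfra being the exception, with a median of 0.66 on the log2 scale against 0.06 over all genes. That median was 1.01 within the arrays labelled male and 0.31 within those labelled female. Without both Mim2 arrays it was 0.31 as well, with 0 of the 10 higher at an unadjusted p under 0.05, where 2.76% of all genes were higher. The same 3 chemokine genes still lay apart then, as did 9.25% of all genes.

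**Figure D1:**
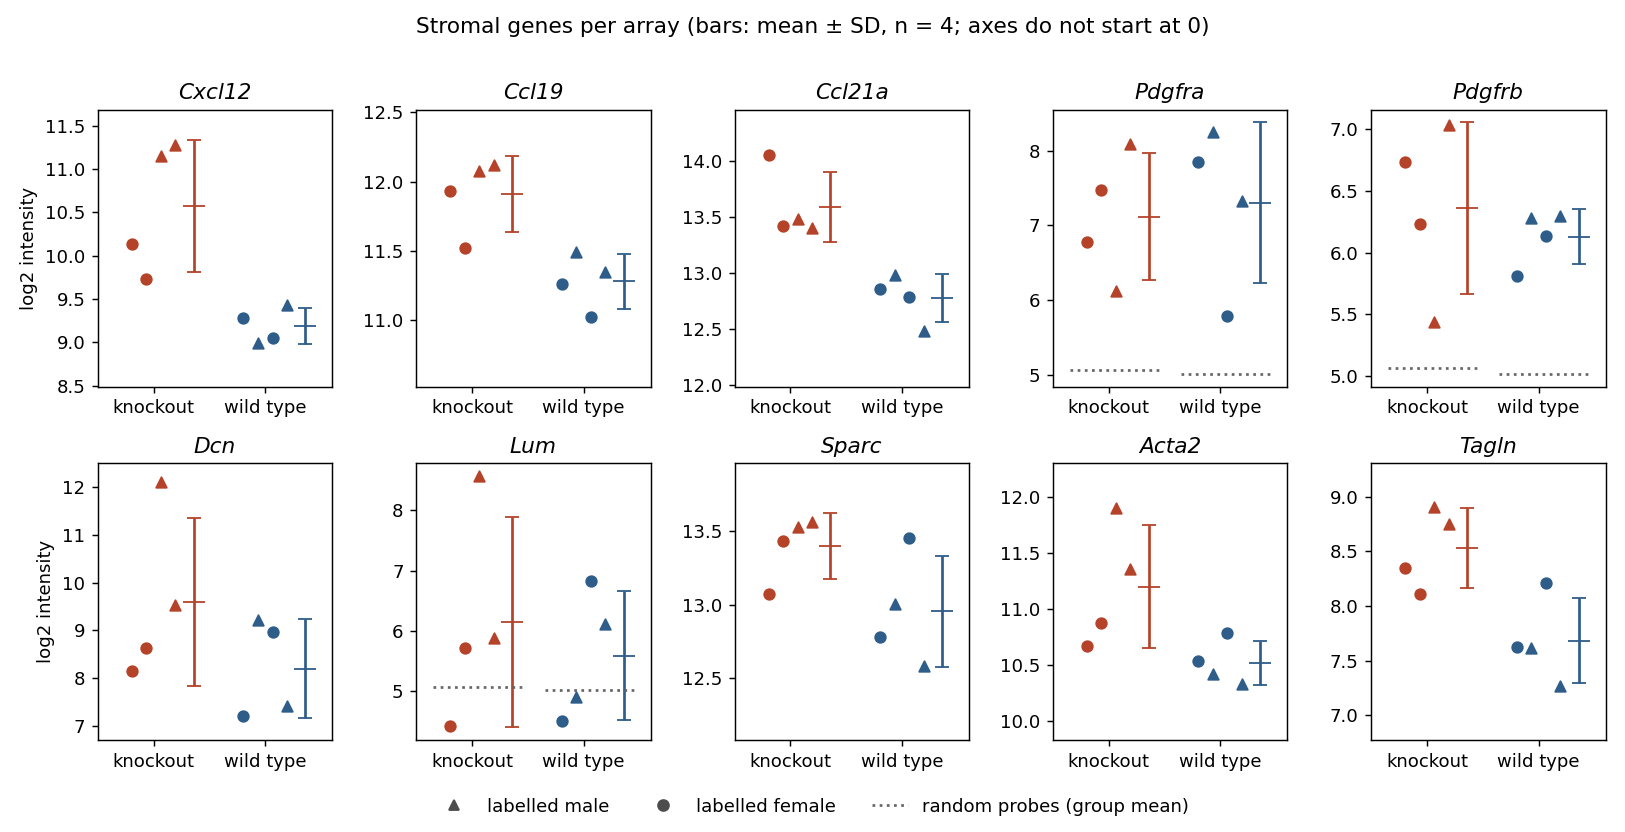
Log2 intensity of the 10 stromal genes on each array, knockout left and wild type right, each gene by its brightest feature. Triangles are arrays labelled male, circles arrays labelled female and bars the mean ± SD of 4 arrays. Dotted lines are the random probes, which show for Pdgfra, Pdgfrb and Lum and lie below the plotted range for the other genes. Cxcl12, Ccl19 and Ccl21a do not overlap between the genotypes, with a narrow gap for Ccl19 (11.52 in Mim1-6 against 11.49 in wild-type animal 2), and Dcn and Lum are highest in Mim2-2.

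Cxcl12, the chemokine of perivascular and red pulp reticular cells that retains lymphocytes and blood progenitors, had the smallest p of the set. Its feature on chromosome 6 from 117118604 to 117125032 (build MM9) read log2 10.13, 9.73, 11.15 and 11.28 in Mim1-5, Mim1-6, Mim2-2 and Mim2-3, against 9.28, 8.99, 9.05 and 9.43 in wild-type animals 1 to 4. Every knockout array was above every wild-type array, and both Mim2 arrays were above both Mim1 arrays. The means were 10.57 ± 0.76 and 9.19 ± 0.20 (SD, n = 4 each), a difference of 1.38 ± 0.34 (SE) or 2.61-fold, with an interval of 0.62 to 2.15. It did not pass over all features (limma, adjusted p = 0.262), and the exact two-sided permutation test gave its smallest possible p of 0.0286. The difference was 2.00 in arrays labelled male and 0.76 in arrays labelled female, and these differed by 1.24 (limma, unadjusted p = 0.0457, adjusted p = 0.367).

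Ccl19, the T zone chemokine, on chromosome 4 from 41738656 to 41740646, read 11.93, 11.52, 12.07 and 12.12 in Mim1-5, Mim1-6, Mim2-2 and Mim2-3, against 11.26, 11.49, 11.02 and 11.35 in wild-type animals 1 to 4. The genotypes did not overlap, but Mim1-6 and wild-type animal 2 were nearly level. The difference was 0.63 ± 0.26 (SE), with an interval of 0.03 to 1.22 (limma, adjusted p = 0.344; exact permutation p = 0.0286), and it was 0.67 in males and 0.58 in females. Mice carry copies of Ccl19 that the probes may also detect.

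Ccl21a, the form of CCL21 made in lymphoid organs, was measured by 2 features. The brighter one, on chromosome 4 from 41774236 to 41775337, read 14.06, 13.42, 13.48 and 13.41 in the knockout animals in the same order, against 12.86, 12.98, 12.78 and 12.48 in wild-type animals 1 to 4. All knockout arrays were above all wild-type arrays and Mim1-5 stood above the rest. The difference was 0.82 ± 0.29 (SE), or 1.76-fold (limma, adjusted p = 0.303; exact permutation p = 0.0286), with 0.71 in males and 0.92 in females. Its second feature, on chromosome 4 from 42231057 to 42232176, differed by 1.30 ± 0.33 (SE) and did not overlap between the genotypes either. Features named for the near-identical copies Ccl21b and Ccl21c differed by 0.62 ± 0.30 and 1.21 ± 0.28 (SE), and for Ccl21b the genotypes overlapped. The gene name and the description of these features disagree in the files on which copy is meant, so the 3 copies are not told apart here. Without both Mim2 arrays the differences were 0.76 ± 0.38 for Cxcl12, 0.58 ± 0.37 for Ccl19 and 0.92 ± 0.41 for the brighter Ccl21a feature (SE).

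**Figure D2:**
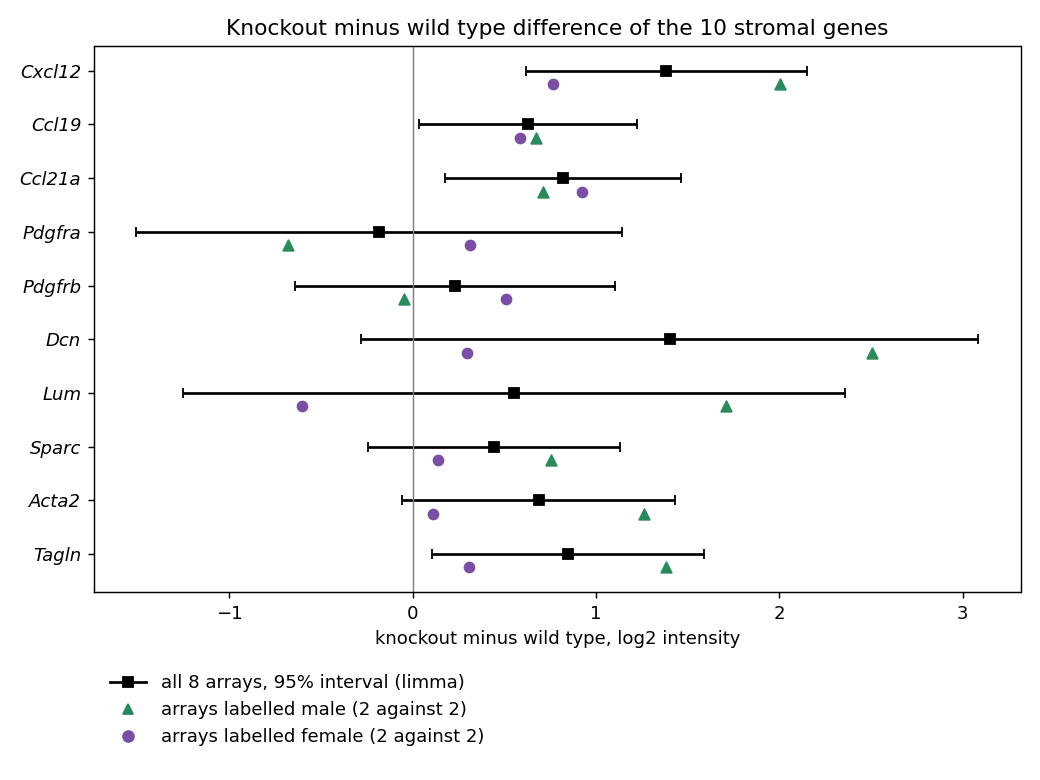
Difference in log2 intensity, knockout minus wild type, for the 10 stromal genes; squares and bars are the estimate over 8 arrays with its 95% interval from limma, and triangles and circles are the differences within the arrays labelled male and female, 2 against 2. The intervals of Cxcl12, Ccl19, Ccl21a and Tagln lie above 0, and the male difference exceeds the female one in Cxcl12, Dcn, Lum, Acta2 and Tagln by more than 1 on the log2 scale.

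Receptors for these chemokines sit on lymphocytes and on scavenging stroma, and 0 of 5 were higher and 1 was lower at an unadjusted p under 0.05, with a median of -0.04. Cxcr4, the receptor of CXCL12, averaged 10.13 ± 0.82 on knockout and 9.62 ± 0.51 on wild-type arrays (SD, n = 4 each), a difference of 0.51 ± 0.42 (SE). Ccr7, the receptor of CCL19 and CCL21, averaged 7.40 ± 1.08 and 7.95 ± 1.02, a difference of -0.55 ± 0.61. Both pairs of groups overlapped. Ackr3 differed by 0.18 ± 0.50. The CCL19 and CCL21 scavenger Ackr4 differed by -0.88 ± 0.36 (limma, unadjusted p = 0.0358, adjusted p = 0.336) and exceeded the background of random probes on 2 of 4 knockout and 4 of 4 wild-type arrays, which leaves the size of the difference inexact.

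Neither PDGF receptor gene was separated by genotype. Pdgfra, the receptor of fibroblasts, read 6.79, 7.47, 6.12 and 8.09 in Mim1-5, Mim1-6, Mim2-2 and Mim2-3, against 7.84, 8.24, 5.79 and 7.33 in wild-type animals 1 to 4, by its feature on chromosome 5 from 75548960 to 75580156. The wild-type arrays spanned more than the knockout arrays, and the difference was -0.18 ± 0.59 (SE, limma adjusted p = 0.914). A feature of nearly the same mean level, on chromosome 5 from 75552190 to 75591879, gave another picture: 6.72, 7.30, 8.64 and 8.78 in the knockout animals against 7.05, 6.41, 6.37 and 6.39 in the wild-type animals. There both Mim2 arrays were above all others, and the difference was 1.30 ± 0.44 (SE, limma adjusted p = 0.296), with 2.31 in males and 0.30 in females. The 2 brightest features of this gene thus differ in sign. The other 3 differed by 0.52, 0.94 and -0.02, and those of 0.94 and -0.02 did not exceed background on every array. Pdgfrb, the receptor of mural cells on chromosome 18, read 6.73, 6.23, 5.44 and 7.03 in the knockout animals against 5.81, 6.28, 6.13 and 6.30 in the wild-type animals. Mim2-2 was the lowest and Mim2-3 the highest of all 8, and the difference was 0.23 ± 0.39 (SE), with an interval of -0.64 to 1.10. Of the 4 PDGF ligand genes 0 were higher and 0 lower at an unadjusted p under 0.05. Pdgfa differed by 0.02 ± 0.33, Pdgfb by -0.04 ± 0.34, Pdgfc by -0.70 ± 0.38 and Pdgfd by -0.31 ± 0.44 (SE).

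Among the 3 matrix genes of the set, Dcn and Lum varied most between the arrays of one genotype. Dcn, the collagen-binding proteoglycan decorin, on chromosome 10 from 96942242 to 96980785, read 8.14, 8.63, 12.10 and 9.54 in Mim1-5, Mim1-6, Mim2-2 and Mim2-3, against 7.20, 9.21, 8.97 and 7.41 in wild-type animals 1 to 4. Mim2-2 stood far above the others and the Mim1 arrays lay within the wild-type range. The means were 9.60 ± 1.76 and 8.20 ± 1.04 (SD, n = 4 each), and the difference of 1.40 ± 0.75 (SE) was no larger than the spread between the knockout arrays (limma, adjusted p = 0.432). Its second feature read 7.64, 7.97, 12.09 and 10.68 in the knockout animals against 7.21, 7.75, 9.25 and 7.09 in the wild-type animals. In that feature the difference was 3.97 in males and -0.43 in females, and these differed by 4.40 (limma, unadjusted p = 0.00311, adjusted p = 0.184). Lum, the proteoglycan lumican, which lies next to Dcn on chromosome 10 from 97028456 to 97035336, read 4.42, 5.71, 8.57 and 5.87 in the knockout animals against 4.50, 4.91, 6.83 and 6.12 in the wild-type animals. Again Mim2-2 was highest, and the difference was 0.55 ± 0.80 (SE), with 1.71 in males and -0.60 in females. Mim1-5 and wild-type animals 1 and 2 lay below the background level, which leaves the difference and its values by sex inexact.

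Sparc, which encodes a collagen-binding matricellular protein, on chromosome 11 from 55208002 to 55233367, varied little between arrays, with 13.07, 13.43, 13.53 and 13.56 in the knockout animals against 12.78, 13.00, 13.45 and 12.58 in the wild-type animals. The groups overlapped through wild-type animal 3, and the difference was 0.44 ± 0.31 (SE, limma adjusted p = 0.537). Its other features differed by 0.33 and -0.28. Adipocyte genes were high on the Mim2 arrays too. Adipoq, which encodes the adipocyte hormone adiponectin, read 7.14, 7.33, 12.93 and 11.47 in Mim1-5, Mim1-6, Mim2-2 and Mim2-3, against 7.996, 7.70, 6.75 and 7.13 in wild-type animals 1 to 4. Of 12 adipocyte genes 5 were higher and 0 lower at an unadjusted p under 0.05, their median was 2.28 in males and -0.16 in females, and their part in the results for Dcn and Lum was not tested.

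Acta2 and Tagln were highest on the Mim2 arrays. Acta2, smooth muscle actin, on chromosome 19 from 34316011 to 34329810, read 10.66, 10.87, 11.90 and 11.36 in Mim1-5, Mim1-6, Mim2-2 and Mim2-3, against 10.53, 10.41, 10.78 and 10.33 in wild-type animals 1 to 4. Only Mim1-5 lay within the wild-type range. The difference was 0.69 ± 0.33 (SE), or 1.61-fold, with an interval of -0.06 to 1.43 (limma, adjusted p = 0.390; exact permutation p = 0.0571), and it was 1.26 in males and 0.11 in females. A second Acta2 feature exceeded background on 2 of 4 arrays of each genotype and is not used. Tagln, the actin-binding protein transgelin, on chromosome 9 from 45738051 to 45743970, read 8.35, 8.11, 8.91 and 8.75 in the knockout animals against 7.63, 7.62, 8.21 and 7.27 in the wild-type animals. Wild-type animal 3 was above Mim1-6, the one overlap. The difference was 0.85 ± 0.33 (SE), or 1.80-fold (limma, unadjusted p = 0.0299, adjusted p = 0.326; exact permutation p = 0.0571), with 1.38 in males and 0.31 in females. Without both Mim2 arrays the differences were 0.11 ± 0.35 for Acta2 and 0.31 ± 0.39 for Tagln (SE). Myoepithelial cells of the mammary gland also express Acta2. A list of 9 myoepithelial genes, Acta2 among them, summed to 2995 to 6138 on knockout and 2707 to 3527 on wild-type arrays. Since the bright Acta2 is part of that sum, it is no separate measure of these cells. The mean log2 intensity of the list was 7.37 to 8.05 on knockout and 7.42 to 7.90 on wild-type arrays. At an unadjusted p under 0.05, 1 of 9 was higher, the smooth muscle gene Myh11, and 1 was lower. The part of myoepithelial cells in the Acta2 and Tagln values was not tested.

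Across the 10 genes, the difference between the sexes in the genotype effect had an unadjusted p under 0.05 in 1 gene, Cxcl12, by the feature used for each. Over all genes that share was 13.6%, and 0 of 44170 features passed when adjusted (0%; limma, 5872 at an unadjusted p under 0.05). The share among the stromal genes is therefore no result about them.

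**Figure D3:**
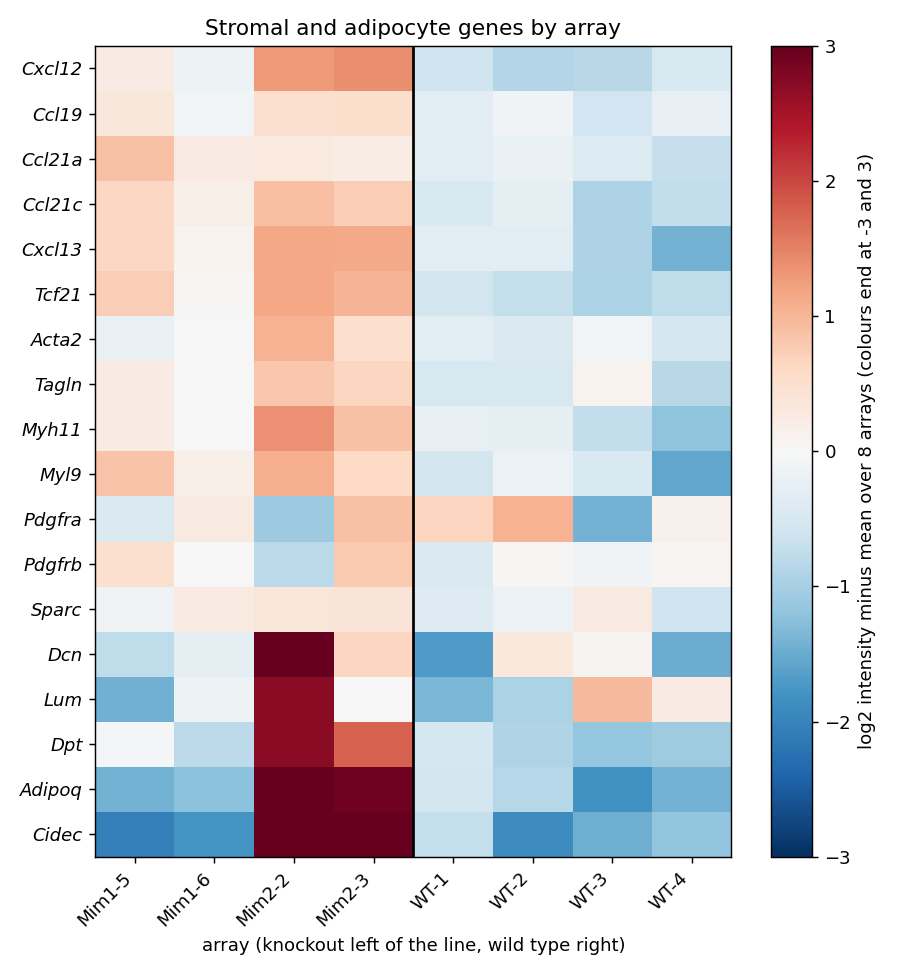
Log2 intensity minus the mean over 8 arrays for the 10 stromal genes, 6 genes of their lists and 2 adipocyte genes (rows) on each array (columns), knockout left of the line and wild type right; red is above and blue below the mean, and colours end at -3 and 3. Ccl19, Ccl21a, Ccl21c, Cxcl13 and Tcf21 are higher on knockout than on wild-type arrays, whereas Dcn, Dpt, Adipoq and Cidec are high on the Mim2 arrays.

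Other genes of reticular cells and of the stromal organisers that attract lymphocytes were more often higher than lower. Of 22 measured, leaving out Ccl21b and Ccl21c because they are not told apart from Ccl21a, 10 were higher and 2 lower at an unadjusted p under 0.05, 7 lay higher on every knockout array, and the median difference was 0.68. Over all genes 7.70% were higher and 6.62% lower at that p, and 5.27% lay higher on every knockout array. These shares apply to the counts of the other lists as well. Without both Mim2 arrays 4 of the 22 were higher and 0 lower at that p, where 2.76% of all genes were higher. The list was chosen with earlier results of these data known. Tcf21, a transcription factor of splenic mesenchyme, averaged 9.69 ± 0.50 on knockout and 8.20 ± 0.17 on wild-type arrays (SD, n = 4 each), a difference of 1.49 ± 0.31 (SE, limma adjusted p = 0.262). Ch25h, the enzyme that makes 25-hydroxycholesterol, averaged 7.23 ± 0.66 and 5.63 ± 0.61, and exceeded background on 3 of 4 wild-type arrays, which leaves its difference of 1.598 ± 0.37 (SE) inexact. Cxcl13, the chemokine of B cell follicles, averaged 10.28 ± 0.50 and 8.76 ± 0.52, a difference of 1.51 ± 0.37 (SE). In each of these 3 genes all knockout arrays were above all wild-type arrays.

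The lymphotoxin pathway, by which lymphocytes induce these chemokines in stroma, had 2 of 10 measured genes higher and 1 lower at an unadjusted p under 0.05, with a median of 0.47. Ltb, the membrane anchor of lymphotoxin on lymphocytes, averaged 13.49 ± 0.23 on knockout and 12.70 ± 0.30 on wild-type arrays (SD, n = 4 each), without overlap, a difference of 0.79 ± 0.27 (SE). Ltbr, its receptor on stroma, is not analysed here. Lta, the other subunit, differed by 0.85 ± 0.38 and the signalling adaptor Traf3 by 0.77 ± 0.31, both with overlap. The TNF receptor gene Tnfrsf1a differed by -1.16 ± 0.47 (SE), a difference of -2.31 in males and -0.01 in females. At an unadjusted p under 0.05, 8 of 10 B cell genes and 7 of 10 T cell genes were higher, with medians of 1.25 and 0.98. Over all genes 7.70% were higher. Without both Mim2 arrays the B and T cell counts were 4 and 1, where 2.76% of all genes were higher. The summed T cell intensity was 6869 to 11729 on knockout and 4702 to 6463 on wild-type arrays. Of 10 red pulp macrophage genes 4 were higher at that p, with a median of 0.85 and summed intensities of 12196 to 20348 against 10047 to 13519. Vcam1 is in this list and in the reticular list, so the lists are not separate. Of 11 endothelial genes 3 were higher and 1 lower, with sums of 8239 to 14225 against 6687 to 9015. Pancreatic genes, from an organ beside the spleen, had 9 of 11 higher, a median of 1.43 and sums of 2950 to 5862 against 677 to 891. Without both Mim2 arrays 0 red pulp macrophage genes, 0 endothelial genes and 6 pancreatic genes were higher at that p. The part of these cells in the values of the stromal genes was not tested.

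**Figure D4:**
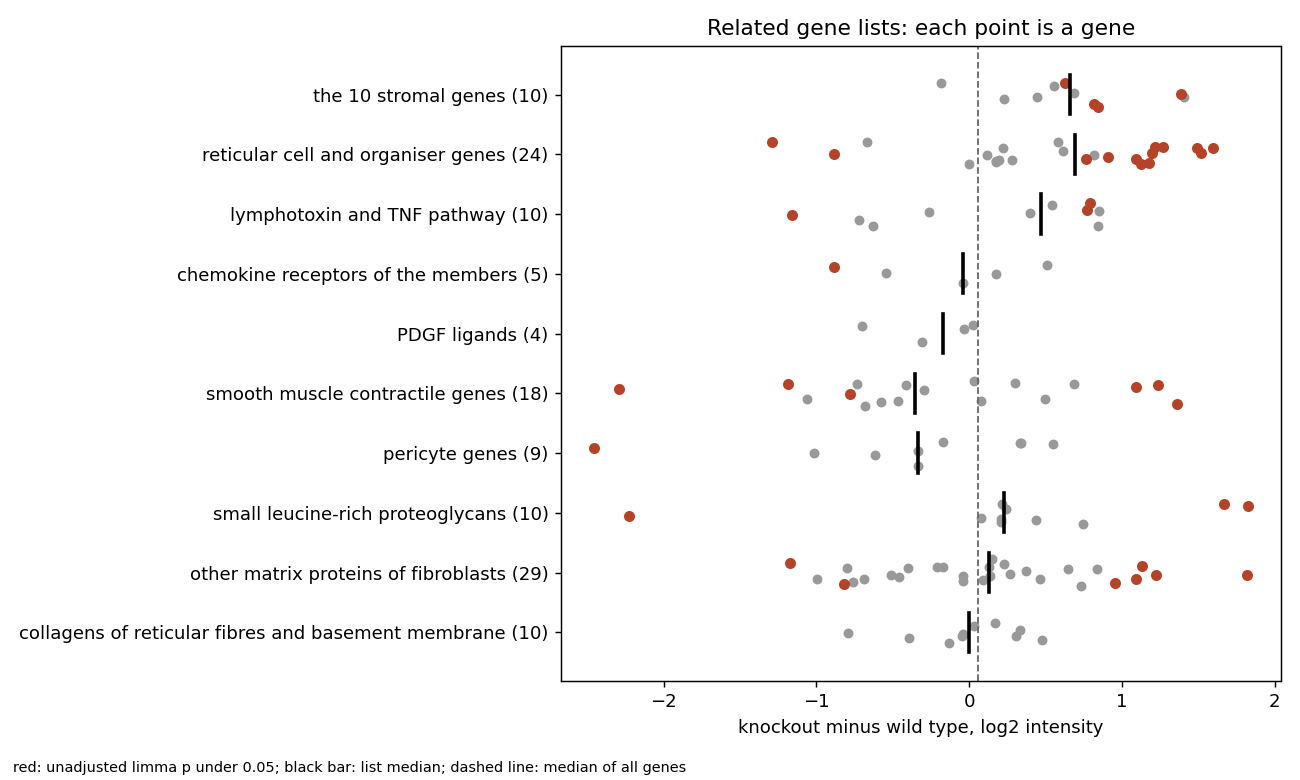
Difference in log2 intensity, knockout minus wild type, for every measured gene of the stromal set and of 9 related lists (number of genes in brackets); red points have an unadjusted limma p under 0.05, black bars are list medians and the dashed line is the median of all genes, 0.06. The reticular and organiser list, here with both Ccl21 copies, lies to the right (median 0.69), whereas contractile genes spread to both sides (median -0.35).

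Contractile genes other than Acta2 and Tagln did not share one direction. Of 18 measured, 3 were higher and 3 lower at an unadjusted p under 0.05, with a median of -0.35. The myosin light chain gene Myl9 averaged 11.84 ± 0.39 on knockout and 10.48 ± 0.60 on wild-type arrays (SD, n = 4 each), a difference of 1.36 ± 0.38 (SE). The smooth muscle myosin heavy chain gene Myh11 averaged 9.39 ± 0.62 and 8.16 ± 0.46, a difference of 1.23 ± 0.38. Both were without overlap, and both encode parts of the myosin that works with smooth muscle actin. Synpo2, an actin-bundling protein, averaged 5.94 ± 0.68 on knockout arrays and did not exceed background on any of the 4 wild-type arrays, so no size is given for its difference. The actin nucleator gene Lmod1 went the other way, with 8.07 ± 1.33 on knockout and 10.36 ± 1.23 on wild-type arrays, a difference of -2.29 ± 0.73 (SE). Of 9 pericyte genes 0 were higher and 1 lower, with a median of -0.34. That one was Anpep, an aminopeptidase of pericytes that epithelia express as well, with a difference of -2.46 ± 0.53 (SE). The pericyte gene Rgs5 differed by -1.02 ± 0.51, Ndufa4l2 by 0.55 ± 0.29 and Mcam by -0.62 ± 0.33, each with overlap.

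Matrix genes beside Dcn, Lum and Sparc were divided. Of 10 further small leucine-rich proteoglycans, the family of decorin and lumican, 2 were higher and 1 lower at an unadjusted p under 0.05, with a median of 0.23. Ogn (osteoglycin) differed by 1.82 ± 0.48, with 2 of 4 wild-type arrays above background, Prelp differed by 1.67 ± 0.61 and Aspn (asporin) by 0.74 ± 0.41 (SE). Chad (chondroadherin) differed by -2.22 ± 0.68 (SE), with -3.75 in males and -0.70 in females. Of 29 other matrix proteins 5 were higher and 2 lower, with a median of 0.13, which was 0.48 in males and -0.31 in females. Of the 29, 1 was higher and 4 were lower without both Mim2 arrays. Dpt, the decorin-binding protein dermatopontin, read 8.04, 7.33, 10.83 and 9.89 in Mim1-5, Mim1-6, Mim2-2 and Mim2-3, against 7.59, 7.22, 6.95 and 7.05 in wild-type animals 1 to 4. As for Dcn, both Mim2 arrays were above all others. The elastic fibre genes Eln and Mfap4 differed by 1.22 ± 0.44 and 0.95 ± 0.33, and Tnc (tenascin C) by -1.17 ± 0.40 (SE).

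Of 10 collagen genes of reticular fibres and basement membrane, 0 were higher and 0 lower at an unadjusted p under 0.05, with a median of -0.0030. Col1a1 differed by -0.79 ± 0.40, Col1a2 by 0.33 ± 0.30, Col14a1 by 0.48 ± 0.32 and Col6a3 by 0.30 ± 0.26 (SE). Col1a1 and Col1a2 encode the chains of the same fibrillar collagen, and their differences had opposite signs with overlap of the genotypes in both. Among wild-type arrays, animal 3 was the highest in 20 of 29 other matrix genes and 6 of 10 collagens, as it was for Sparc, Acta2, Tagln and Lum, against 5714 of all 24171 genes.

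The genes whose pattern over the 8 arrays was most like that of each stromal gene were found by the root mean square distance between log2 values, each centred on its own mean, among 15818 genes above the random probes on all arrays. For Cxcl12 these were Zfp783 (distance 0.17) and Gm6388 (0.18), where Cxcl12 itself had an SD of 0.90 over the arrays. For Ccl19 they were Faap20 (0.09) and Snrk (0.09), and for Ccl21a Rpl5 (0.14) is given. Sparc was nearest to Smarca5-ps (0.11) and to Col1a2 (0.12), Acta2 to Ankrd44 (0.11) and Gm2948 (0.11), and Tagln to Igfbp7 (0.12) and Gm14418 (0.13). Col1a2, which encodes a chain of type I collagen, and Igfbp7, which encodes a secreted binding protein of vessel walls, are themselves expressed by stroma. Distances were larger for the genes of uneven level: Pdgfra was nearest to Nos1 (0.40) and Zfp641 (0.40), Dcn to Ntrk2 (0.50) and A830005F24Rik (0.58), and Lum to Gpr61 (0.55) and Ndrg2 (0.59). Pdgfrb was nearest to Phykpl (0.19) and Zfyve9 (0.20).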

How the data were processed

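The authors deposited, per the labels and the file headers, 1 table per array with a linear intensity for each feature, made with RMA per the submitters' processing notes, which corrects background, normalizes between arrays and summarises probes, 3 for 44155 of 44170 features. Positions are those of build MM9 per the file headers. The deposited standard error score entered no test. An entry of 5000 random probes served as background, outside all tests. A deposited series table held 21856 of the features with the same intensity values (relative tolerance 1e-06), 0 columns being left unmapped. Median intensities were 112.1 to 119.1, and the number of arrays limits the precision.

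Intensities were taken as log2 with no further normalization. Differences were fitted in R 4.3.3 with limma 3.58.1 (lmFit, then eBayes), with labelled sex as an additive term, two-sided, and adjusted by Benjamini-Hochberg over all features at 0.05. A second fit held the genotype by sex interaction. Single genes were also compared by an exact two-sided permutation test over 70 arrangements, whose smallest p is 0.0286. It was run for each of the 10 genes, and its p-values are not adjusted. Each gene was taken by its feature of highest mean log2 intensity, and RefSeq tables of GRCm38.p6 gave current symbols (21583 of 24203 gene numbers matched), promoters and the microRNA.

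The 10 genes and all lists were chosen with earlier results of these data known. Genes named besides the 10 are up to 4 of each related list with the smallest p, the receptors and ligands, the Ccl21 copies and the 2 genes nearest to each member, of which 1 is not reported here. The marker genes Pdpn, Adipoq and Cidec were chosen after their values were seen. Alternatives covered the series table, normalization, dim features, the floor, the variance model, array weights, covariates, the features per gene and leaving out arrays. Slides and scans are not named in the tables used here, so neither was fitted as a block.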

Additional observations from a re-analysis of the deposited data

Results flagged for a closer look

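In 2 of 38 groups of 4 arrays, 1 array lay far from the other 3 by Dixon's ratio of gap to range at its 95% critical value, where chance alone gives about 1 in 20 groups. For Ccl21a, Mim1-5 read log2 14.06, and the other knockout animals read 13.41 to 13.48. For the second brightest Pdgfra feature, wild-type animal 1 read 7.05, and the other wild-type animals read 6.37 to 6.41.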

How the results depend on the processing

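Of 20 or 21 alternatives run per gene, several leave the difference itself as it is, such as those on the variance model and the sex term, and that within females equals that without both Mim2 arrays. Counting each distinct changed value once, the sign was kept in 13 of 13 for Cxcl12, Ccl19 and Tagln, 14 of 14 for Ccl21a, Dcn, Sparc and Acta2, 12 of 14 for Lum, 11 of 13 for Pdgfrb and 9 of 15 for Pdgfra. The lowest and highest values were 0.76 and 2.00 for Cxcl12, 0.55 and 0.72 for Ccl19, 0.67 and 1.06 for Ccl21a, 0.11 and 1.26 for Acta2, 0.31 and 1.38 for Tagln, -0.69 and 1.30 for Pdgfra and -0.60 and 1.71 for Lum. Of the 10 genes Cxcl12 passed in one alternative, within arrays labelled male (2.00, limma adjusted p = 0.0339).

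The count of features passing was 16 with trend and robust variance and 1875 within arrays labelled male. The interaction had 578 with trend and robust variance and 311 with the series table, which holds fewer features. Of the 10 genes, 1 was higher at an unadjusted p under 0.05 within arrays labelled female and 0 without both Mim2 arrays, and 7 lay wholly above the wild type within arrays labelled male. The median difference was 1.01 within males, 0.31 within females and 0.31 without both Mim2 arrays, where the fit rests on the females. Leaving out 1 array gave 2 to 5 genes at that p, 2 when the array left out was that of wild-type animal 1, 2 or 4, Mim2-2 or Mim2-3, and 5 without wild-type animal 3. It gave 3 to 6 genes wholly above, 6 without wild-type animal 3. The cause of these changes was not tested. For the arrays of one labelled sex and for leaving out 1 array, the share over all genes is not given. The counts in those settings are therefore no result about the 10 genes. Using the second brightest feature for Pdgfra and the list counts without both Mim2 arrays were chosen after seeing the data. No paired analysis was possible because the names of the knockout animals and the numbers of the wild-type animals do not pair. The series table lacks Lum and Pdgfrb.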
